A study of Mus musculus with 3 samples.

Results

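A set of 10 genes of cytosolic nucleic acid sensing was described in B16 mouse melanoma cells. The genes were chosen by name rather than by their values, though earlier results of these data were known. The DNA branch was Cgas, listed by its older name Mb21d1, and Tmem173, which encodes STING. The RNA branch was Ddx58, which encodes RIG-I, Ifih1, which encodes MDA5, and their adaptor Mavs. The others were the kinases Tbk1 and Ikbke, the transcription factors Irf3 and Irf7, and the nuclease Trex1. Of these 10 genes, 9 had a row among the 17285 of the count table. Ifih1 had no row under its symbol or its RefSeq synonyms and was not analysed here. RNA was sequenced from 3 samples, Mock replicates 1, 2 and 3, of a B16 line that stably carries an empty vector, and all 3 belong to a single group. No treated, infected or nucleic acid-transfected sample and no untransfected parent were compared. Whether the line is 1 clone, and whether each sample had its own culture, is not stated in the labels. The p-values of edgeR, limma and DESeq2 therefore use a spread between samples that may be technical. Those of Poisson tests assume counting error alone. The libraries held 9328087 to 9456501 counts, and the 9 genes together took 0.0348% to 0.0365% of them. One read equalled about 0.106 CPM (CPM being read counts scaled to library size). For a gene with no read at all the upper limit was 0.106 CPM, by the convention of 3 counts across all libraries. Limits and intervals cover counting error alone. All 10 pigment cell markers measured were above 1 CPM, beside 61.97% of all rows. They ran from 6.52 CPM for Tyr to 12337.4 CPM for Tyrp1, with a median of 995 CPM. Of 10 leukocyte markers with a row, 6 had no read, among them Csf1r, Adgre1 and Tyrobp, and apart from the lysosomal gene Cd68 (812 CPM) the other 9 summed to between 0.318 and 1.07 CPM per library. Of 12 fibroblast and endothelial markers 3 were above 1 CPM and 6 had no read, and all 12 summed to between 35.9 and 42.0 CPM per library.

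Cells detect misplaced nucleic acid in the cytosol through a pair of relays. cGAS binds double-stranded DNA and makes the cyclic dinucleotide cGAMP, which activates STING on the endoplasmic reticulum, while RIG-I and MDA5 bind viral-type RNA and act through MAVS on the mitochondrial surface. Both relays recruit the kinase TBK1 (and its relative IKKε, encoded by Ikbke), which phosphorylates IRF3 to switch on type I interferon. IRF7, itself an interferon-induced factor, amplifies the response, and the exonuclease TREX1 degrades cytosolic DNA and so limits cGAS. In tumour cells these relays are studied because parts of them are often silenced.

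The promoter sequences of the gene with the most reads, Mavs, and of the transcription factors Irf3 and Irf7, whose levels lay farthest apart within a role, are shown as the 250 bases before the start given by RefSeq on GRCm38.p6, read 5′ to 3′ along the gene's own strand. Capitals mark matches on either strand to the TATA box (letters TATAAA), the CCAAT box (its name gives the letters), the GC box (letters GGGCGG), or a pair of GAAA words with 1 or 2 bases of any kind between them.
Mavs, chr2:131233813-131234062, plus strand: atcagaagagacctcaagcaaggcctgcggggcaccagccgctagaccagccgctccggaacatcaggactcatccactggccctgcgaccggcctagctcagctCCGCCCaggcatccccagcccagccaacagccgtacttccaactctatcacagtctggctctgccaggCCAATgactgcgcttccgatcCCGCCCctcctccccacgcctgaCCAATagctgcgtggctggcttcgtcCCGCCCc
Irf3, chr7:44997398-44997647, plus strand: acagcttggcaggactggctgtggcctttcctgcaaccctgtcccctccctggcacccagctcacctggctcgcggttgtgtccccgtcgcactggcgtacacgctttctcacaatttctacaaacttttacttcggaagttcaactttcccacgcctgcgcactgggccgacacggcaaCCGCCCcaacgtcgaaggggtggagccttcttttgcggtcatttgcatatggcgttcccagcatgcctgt
Irf7, chr7:141266425-141266674, minus strand: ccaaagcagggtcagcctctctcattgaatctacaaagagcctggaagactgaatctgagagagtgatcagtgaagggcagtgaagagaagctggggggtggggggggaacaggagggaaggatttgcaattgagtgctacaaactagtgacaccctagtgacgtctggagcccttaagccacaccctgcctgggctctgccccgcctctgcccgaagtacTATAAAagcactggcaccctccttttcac
The GC boxes in these windows lie on the opposite strand and so read CCGCCC. The Mavs window held several of them and a pair of CCAAT boxes, the Irf3 window held a single GC box, and the Irf7 window held a TATA box starting 29 bases before the start. RefSeq gave 10 windows for 9 of the genes, 2 of them for Trex1. Over the full 300 bases of each, which run 50 bases past the start, the GC box stood in 5 of 10 windows (35.66% of all 32851 RefSeq windows), the TATA box in 2 (13.62%), the CCAAT box in 1 (37.41%) and the GAAA pair with 1 base between in 1 (3.17%).

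Interferon-stimulated response elements have as their core a pair of GAAA words with 2 bases between, which IRF proteins bind. This core matched in 2 of the 10 windows, those of Ddx58 and Ifih1, against 3.44% of all RefSeq windows of the same length. Both matches lay just after the start, at bases 3 to 12 in Ddx58 and 33 to 42 in Ifih1. The 30 bases around each are shown, with the core in capitals, on the opposite strand in Ddx58.
Ddx58, chr4:40239804-40239833, minus strand: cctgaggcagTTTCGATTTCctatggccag
Ifih1, chr2:62646206-62646235, minus strand: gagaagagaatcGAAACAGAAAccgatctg
The Irf7 window held no match to this core, which says only that these letters are not in those 300 bases.

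Of the 9 measured genes, 8 were transcribed above 1 CPM, and Irf7 was below it. The test was edgeR's quasi-likelihood F statistic against 1 CPM, two-sided, adjusted over 14408 genes with a read. Before adjustment, a p smaller than that of a Poisson likelihood-ratio test was raised to it. The adjusted p of the 8 ran from 7.15e-15 for Mavs to 1.49e-08 for Ikbke. Of all genes tested, 74.3% were above 1 CPM and 20.2% below, so 8 of 9 above is close to the background. The median of the 9 was 18.0 CPM, beside 12.6 CPM over all rows of the table, and per kilobase of annotated exon 5.17 beside 2.86.

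**Figure D1:**
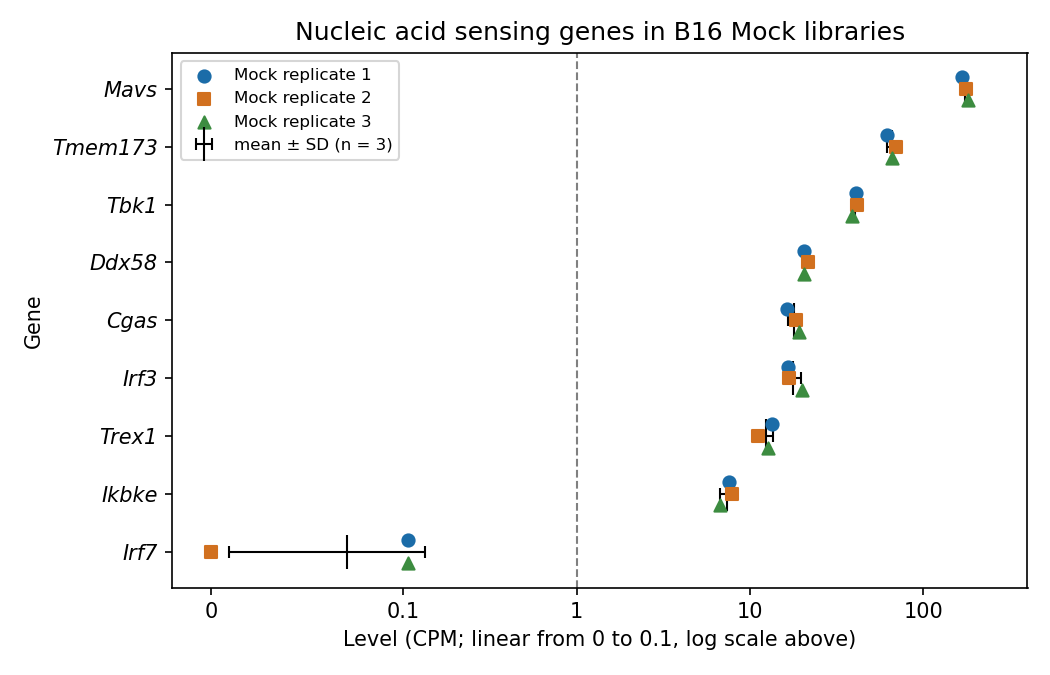
CPM of the 9 measured genes (horizontal axis, linear from 0 to 0.1 and log above) in each Mock replicate, with the mean and SD of 3 libraries as black bars and 1 CPM as a dashed line. The other 8 genes lie between 7.37 and 175 CPM on average, and Irf7 lies at 0.0710 CPM.

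In the DNA branch, sensor and adaptor were both transcribed. Cgas (chromosome 9, 78430526 to 78443237, minus strand, GRCm38, GENCODE M21) read 16.5, 18.4 and 19.1 CPM in replicates 1, 2 and 3, or 18.0 ± 1.37 CPM (mean ± SD, n = 3; other CPM values are given likewise). Tmem173 (chromosome 18, 35733679 to 35740554, minus strand) read 62.2, 70.0 and 66.1 CPM, or 66.1 ± 3.89 CPM. For both genes replicate 1 was the lowest, and the ranges of the 2 genes did not overlap. Within each library Cgas had fewer reads than Tmem173. The log2 ratio was -1.91, -1.92 and -1.79 by replicate, or -1.87 ± 0.07 (SD, n = 3; limma, adjusted p = 5.23e-88, lower in 3 of 3 libraries). In the same fit 71.3% of all genes lay below Tmem173 and 24.3% above. Per kilobase of annotated exon the gap was wider, with Cgas at 4.36 ± 0.333 and Tmem173 at 24.1 ± 1.42 CPM per kilobase, a log2 ratio of -2.46.

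Trex1 is the exonuclease that removes the DNA which cGAS senses. It (chromosome 9, 109057933 to 109059734, minus strand) read 13.5, 11.1 and 12.7 CPM, or 12.4 ± 1.19 CPM, with replicate 2 the lowest. In reads Cgas exceeded Trex1, at a log2 ratio of 0.29, 0.73 and 0.58, or 0.53 ± 0.22 (limma adjusted p = 2.00e-05, higher in 3 of 3 libraries). Of all genes, 57.8% had more reads than Trex1 and 37.6% fewer. Trex1 has 1147 bases of annotated exon and Cgas 4126, and per kilobase the order turned: Trex1 stood at 10.8 ± 1.04 CPM per kilobase and Cgas at 4.36. The log2 ratio was then -1.31 (limma, adjusted p = 4.01e-26), or -1.37 by the longest transcript. Over all alternatives the log2 ratio ran from -1.37 to 0.65. The limma adjusted p, 3.65e-28 to 0.0163, thus belongs to ratios of both directions. The reads of Trex1 carry a further limit, since all of its annotated exon also lies in Atrip, a DNA damage checkpoint gene on the same strand. Of 9 Atrip transcripts, 3 run over it, 1 of them a nonsense-mediated decay form that covers it whole. Atrip itself read 14.0, 12.3 and 11.6 CPM, or 12.6 ± 1.249 CPM. How the counting divided reads between them is not given in the sources used here. Neither gene had fractional counts.

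In the RNA branch, the sensor gene Ddx58 and the adaptor gene Mavs lay far apart. Ddx58 (chromosome 4, 40203773 to 40239828, minus strand), whose product RIG-I recognises RNA ends, read 20.4, 21.7 and 20.5 CPM, or 20.9 ± 0.746 CPM. Mavs (chromosome 2, 131234063 to 131248025, plus strand) was the most abundant of the 9, at 168, 176 and 182 CPM, or 175 ± 6.66 CPM, and held 48.9% of all reads of the 9 genes. It ranked 1192 among the rows of the table. Mavs was lowest in replicate 1, and no library's value of one gene came near the range of the other. Per kilobase of annotated exon Mavs stood at 52.4 ± 1.99 and Ddx58 at 2.96 ± 0.106 CPM per kilobase. The exon length matters most for Ddx58, at 7050 bases merged and 3874 in its longest transcript, and per kilobase of the latter it stood at 5.39. Because Ifih1 had no row, the planned ratio of both RNA sensors could not be formed.

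The kinases on which the relays meet were unequal. Tbk1 (chromosome 10, 121546455 to 121586787, minus strand) read 41.0, 41.5 and 38.6 CPM, or 40.4 ± 1.57 CPM. Ikbke (chromosome 1, 131254343 to 131279606, minus strand) read 7.59, 7.84 and 6.68 CPM, or 7.37 ± 0.610 CPM. Both were lowest in replicate 3, and their ranges were far apart. The log2 ratio of Tbk1 to Ikbke was 2.43, 2.40 and 2.52, or 2.45 ± 0.06 (limma adjusted p = 3.89e-138, higher in 3 of 3 libraries). Of all genes, 63.7% had more reads than Ikbke and 32.9% fewer. Summed over libraries this was 1140 against 208 reads, a ratio of 5.48 with an exact 95% interval of 4.72 to 6.38. Per kilobase of annotated exon the log2 ratio was 3.65 and per kilobase of the longest transcript 3.40, since the annotation gives Ikbke 9018 and Tbk1 3910 bases of exon.

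The transcription factors showed the widest gap within a role. Irf3 (chromosome 7, 44997648 to 45002848, plus strand), the factor that TBK1 activates first, read 16.7, 16.7 and 19.9 CPM, or 17.8 ± 1.87 CPM, with replicate 3 above the others. Irf7 (chromosome 7, 141262706 to 141266481, minus strand), the interferon-induced amplifier, had 1, 0 and 1 read, or 0.107, 0 and 0.106 CPM. Its 2 reads equal 0.0709 CPM with an exact 95% Poisson interval of 0.00858 to 0.256, and it was below 1 CPM (edgeR adjusted p = 0.000724). Over the alternatives its adjusted p ran from 4.88e-10 to 0.218. The upper end is DESeq2's Wald test, which put 0 genes of the whole table below 1 CPM, even with its p left unadjusted and a threshold of 0.05. Irf3 had 502 reads, 251 times as many as Irf7, with an exact 95% interval of 69.1 to 2078. Of their neighbours, the opposite-strand gene Bcl2l12 shares 88 bases of exon with Irf3 and read 3.72 ± 0.676 CPM, and the opposite-strand gene Phrf1 shares 45 bases with Irf7 and read 133 ± 6.68 CPM. Cgas also shares 201 bases of exon with opposite-strand Gm8093. Ikbke shares 65 and 159 with opposite-strand Gm28913 and Gm28914, and none of these Gm genes had a row. Whether the counting used strand is not given in the sources used here.

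Set against Tbk1 in the same library, 2 of the other 8 genes had more reads and 6 had fewer by limma. Of all genes, 36.2% had more reads than Tbk1 and 59.8% fewer. Mavs stood at a log2 ratio of 2.12 ± 0.10 and Tmem173 at 0.71 ± 0.10. Those with fewer reads were Ddx58 (-0.95 ± 0.05, limma adjusted p = 3.16e-34), Cgas (-1.17 ± 0.15), Irf3 (-1.19 ± 0.20), Trex1 (-1.70 ± 0.17), Ikbke (-2.45 ± 0.06) and Irf7, whose 2 reads give no firm ratio. Levels are comparable between genes only per length. Per kilobase of annotated exon the log2 ratios to Tbk1 were 2.34 for Mavs, 1.22 for Tmem173, 0.07 for Trex1, -1.002 for Irf3, -1.24 for Cgas, -1.80 for Ddx58 and -3.65 for Ikbke. Trex1, below Tbk1 in reads, did not differ detectably from it per kilobase of merged exon (limma adjusted p = 0.474), and per kilobase of the longest transcript it lay slightly below, at -0.22 (adjusted p = 0.0251).

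**Figure D2:**
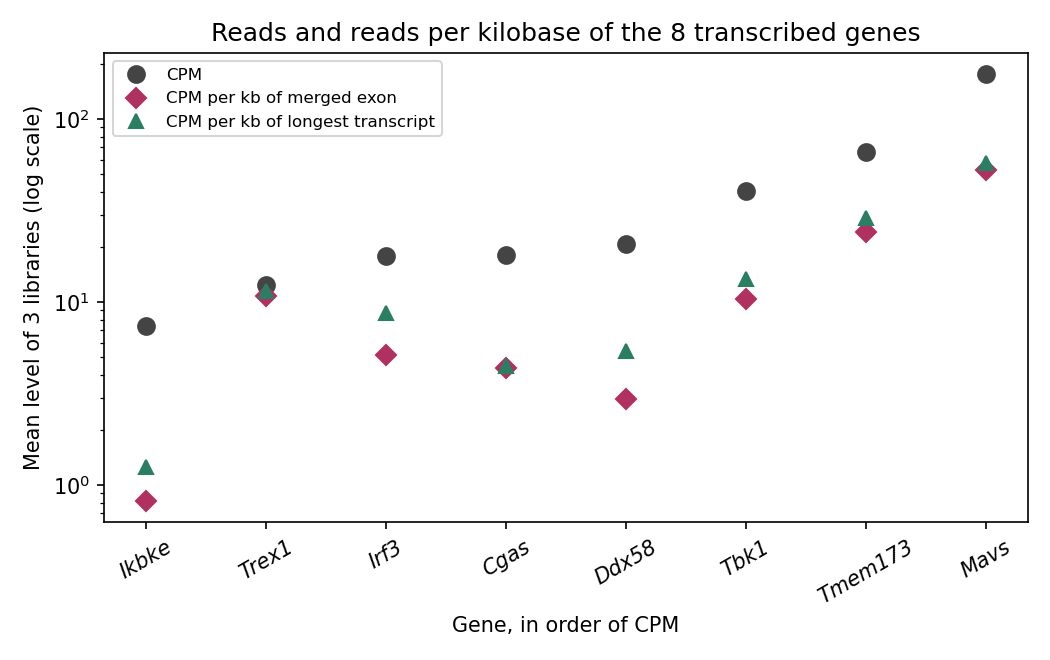
Mean level of 8 genes over 3 libraries (vertical axis, log scale) as CPM, as CPM per kilobase of merged exon and as CPM per kilobase of the longest transcript, in order of CPM. Trex1, second lowest in CPM at 12.4, lies beside Tbk1 per kilobase of merged exon, at 10.8 and 10.3.

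The order of CPM was Mavs, Tmem173, Tbk1, Ddx58, Cgas, Irf3, Trex1, Ikbke and Irf7. Only Cgas and Irf3 had overlapping ranges among neighbours in this order. Per kilobase of merged exon the order became Mavs, Tmem173, Trex1, Tbk1, Irf3, Cgas, Ddx58, Ikbke and Irf7, where only the ranges of Trex1 and Tbk1 overlapped. With the longest transcript as the length, Tbk1 preceded Trex1 and Ddx58 preceded Cgas, and no neighbours overlapped. The adaptors Mavs and Tmem173 led, and Ikbke and Irf7 came last, on each of these 3 scales.

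The 3 libraries gave close values for each gene. The coefficient of variation of the 8 genes above 1 CPM ran from 3.57% in Ddx58 to 10.5% in Irf3. Counting alone gives 7.14% for Ddx58, 7.73% for Irf3 and 2.46% for Mavs, whose observed value was 3.80%. None of the 8 varied beyond counting noise by a Poisson deviance test (chi-square, adjusted over the 11000 genes that averaged 10 counts or more), and 0 of 8 did at an unadjusted p under 0.05, the lowest being 0.0926 for Mavs. Of all genes tested this way, 3.31% varied. Irf7 had too few reads for the test.

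**Figure D3:**
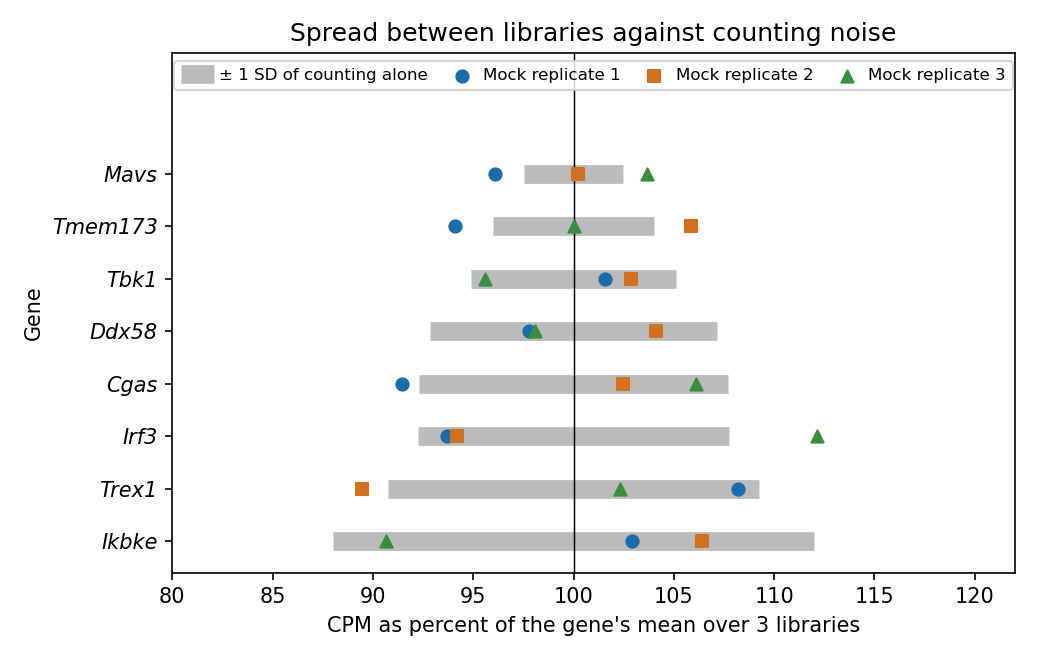
CPM of each library as a percent of the gene's mean (horizontal axis) for 8 genes, with grey bars for 1 SD of counting noise on either side. Most points lie within or near the grey bars, and Irf3, with the highest coefficient of variation, runs from 93.7% to 112% of its mean.

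The rest of the pathway was described by 6 lists that hold 155 genes, of which 142 had a row. Of these 113 were above 1 CPM and 12 below. Over all 17285 rows of the table, 61.97% were above 1 CPM, 16.8% below and 16.6% without a read, and the median was 12.6 CPM. Counts are fractional in 29 of the 142, among them Surf4, Copa, Hmgb1, Pcbp2, Azi2, Ifi204, Mndal, Oas1a, Oas3 and Ifnz, so those levels are uncertain.

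Among other DNA sensors and cofactors, several general nucleic acid-binding genes were abundant and the AIM2 family was nearly without reads. Of 19 genes, 13 were above 1 CPM (61.97% of all rows), 4 below and 2 without a read, with a median of 45.8 CPM. The highest were Hnrnpa2b1 at 773 ± 28.5 CPM, the helicase gene Dhx9 at 312 ± 9.68, G3bp1, whose product aids cGAS, at 268 ± 7.74, and the chromatin protein gene Hmgb1 at 228 ± 0.936. All 4 encode proteins with wide duties in RNA or chromatin beyond sensing. Aim2, which encodes the DNA sensor of inflammasomes, had 2 reads, Ifi204 9, and Ifi203 and Mndal 1 each, and these 4 were below 1 CPM. Ifi205 and Zbp1, which encodes a sensor of Z-form nucleic acid, had none, which allows up to 0.106 CPM each. Ifi203 and Mndal each rested on replicate 2, without which they had no read to test. The read of Mndal is a fractional count rounded up, and with counts not rounded the gene was not tested and 3 were below.

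Among other RNA sensors and cofactors, 12 of 19 were above 1 CPM, a share near the 61.97% of all rows, 3 were below, 2 unresolved and 2 without a read. The median was 4.22 CPM beside 12.6 CPM over all rows. The call of Oas3 above 1 CPM (1.56 CPM, edgeR adjusted p = 0.04998) was lost without any 1 of the replicates, which left 11 above. The highest were again general RNA-binding or scaffold genes: Pcbp2, whose product promotes loss of MAVS protein, at 1406 ± 26.0 CPM, Ywhae, a 14-3-3 gene whose product escorts RIG-I, at 844 ± 19.8, the helicase gene Ddx3x at 413 ± 12.6 and Dhx15 at 301 ± 3.43. The third RIG-I-like receptor gene, Dhx58 (LGP2), stood at 1.92, 2.12 and 2.55 CPM, or 2.20 ± 0.318, low but above 1 CPM (edgeR adjusted p = 0.000610). DESeq2's Wald test, which put 0 genes of the whole table below 1 CPM, left it without a call (adjusted p = 0.428). The ubiquitin ligases that act on RIG-I also differed, with Rnf135 (Riplet) at 4.22 ± 0.636 CPM and Trim25 with 3, 0 and 0 reads. Trim25 was below 1 CPM with all libraries, but without replicate 1 it had no read and without replicate 2 or 3 it was unresolved (edgeR adjusted p = 0.0532 and 0.0571). The endosomal RNA sensor gene Tlr3 read 13.6 ± 0.224 CPM and its adaptor gene Ticam1 20.4 ± 1.91. Ddx60 and Tlr7 had 1 read each, both in replicate 2, and Oas2 and Nod2 none. Oas1a was unresolved. These genes, apart from the highest 4 and those without a read, were named after their values were seen.

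Most genes for STING traffic and control were transcribed. Of 27, 25 were above 1 CPM (61.97% of all rows), 1 below and 1 without a read, with a median of 57.9 CPM. Surf4, a cargo receptor that returns STING to the endoplasmic reticulum, read 419.8 ± 11.4 CPM, the coatomer gene Copa 398 ± 2.46 and Tmed10 293 ± 8.78. Enpp1, the ectoenzyme that hydrolyses cGAMP, was the single gene below, with 2, 4 and 5 reads (edgeR adjusted p = 0.0109), and it was unresolved without replicate 2 (0.0504). Nlrx1, a mitochondrial inhibitor of these relays, had no read.

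Of 29 genes for kinase adaptors, the NF-κB arm and other IRF factors, 27 were above 1 CPM (61.97% of all rows), with a median of 39.9 CPM beside 12.6 CPM over all rows. The autophagy receptor gene Sqstm1 led at 636 ± 7.17 CPM, followed by Tax1bp1 at 216 ± 3.78, Map3k7 at 171 ± 4.599 and Nfkb1 at 130.5 ± 7.31. Of the scaffolds that bind TBK1, Azi2 (NAP1) read 39.9 ± 2.37, Tbkbp1 (SINTBAD) 36.6 ± 2.16 and Tank 26.9 ± 1.46 CPM. In reads Tank lay below Tbk1, by -0.59 ± 0.11 on the log2 scale (limma, adjusted p = 8.07e-17), as did Tbkbp1, at -0.14 ± 0.05 (limma, adjusted p = 0.0243). Azi2 was unresolved in reads, at -0.02 ± 0.11 (limma, adjusted p = 0.775). Per kilobase of annotated exon the log2 ratios to Tbk1 were -0.17 for Tbkbp1, -0.74 for Azi2 and -1.23 for Tank. Among other IRF genes, Irf2 read 22.7 ± 1.499, Irf1 12.4 ± 1.29 and Irf9 5.39 ± 0.0749 CPM, Irf4 had 1 read, in replicate 1, and Irf5 none. The scaffolds and these IRF genes, other than Irf5, were named after their values were seen.

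Genes that limit self nucleic acid were above 1 CPM in 18 of 20 (61.97% of all rows), with a median of 35.5 CPM, and the other 2, Trex2 and Dnase1l3, had no read. Banf1, whose product coats genomic DNA and competes with cGAS for it, led at 206 ± 2.21 CPM, followed by the RNA editor gene Adar at 76.9 ± 3.34, Samhd1 at 68.3 ± 0.844 and the mitochondrial helicase gene Supv3l1 at 65.3 ± 2.37. All 3 subunits of RNase H2 were above 1 CPM, Rnaseh2a at 35.9 ± 2.96, Rnaseh2b at 14.0 ± 1.24 and Rnaseh2c at 20.7 ± 2.26 CPM, named after their values were seen.

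**Figure D4:**
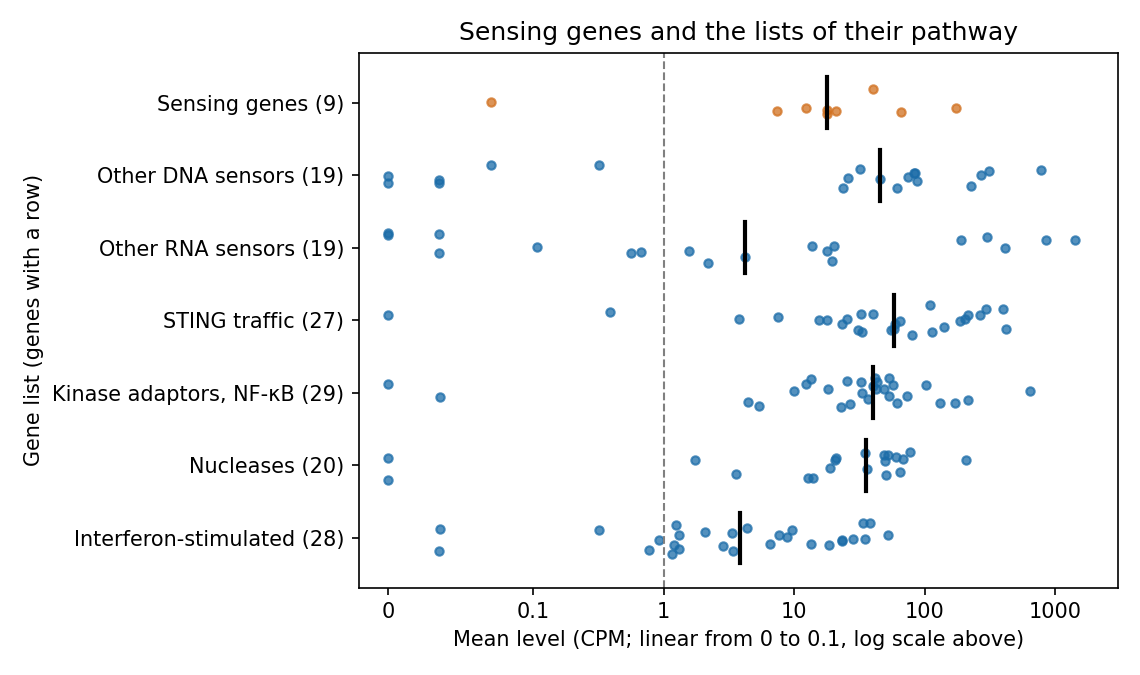
Mean CPM of each gene with a row (horizontal axis, linear from 0 to 0.1 and log above) for the sensing genes and 6 lists of their pathway, with black bars at the medians and 1 CPM as a dashed line. The lowest medians are those of the other RNA sensors, 4.22 CPM, and of the interferon-stimulated genes, 3.86 CPM.

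Interferon and interferon-stimulated genes, the outputs of both relays, had the lowest median of the 6 lists, while some of their members were well above 1 CPM. Of 36 listed, 28 had a row. The interferon genes Ifnb1, Ifna4, Ifna2, Ifnl3 and Ifnk had none and were not analysed here. Of the 28, 18 were above 1 CPM (61.97% of all rows), 3 below and 7 unresolved, with a median of 3.86 CPM beside 12.6 CPM over all genes, and 9 exceeded 10 CPM. Ifit2, whose product binds viral RNA, read 53.8, 51.2 and 52.3 CPM, or 52.4 ± 1.33. Bst2 (tetherin) read 38.4 ± 1.78, Rsad2 (viperin) 34.6 ± 1.12 and Herc6, an ISG15 ligase, 33.7 ± 1.004 CPM. The chemokine gene Cxcl10 read 22.8, 20.6 and 26.1 CPM, or 23.1 ± 2.78. Isg15, the ubiquitin-like modifier, was much lower in CPM, at 2.67, 3.50 and 2.44, or 2.87 ± 0.556 CPM. It had no call by DESeq2's Wald test (adjusted p = 0.189), the test that put 0 genes of the whole table below 1 CPM. Per kilobase of annotated exon, however, Isg15 stood at 3.80 ± 0.736 and Herc6 at 3.63 ± 0.108 CPM per kilobase. On that scale Bst2 stood at 42.5, Ifit2 at 13.4, Cxcl10 at 10.3 and Rsad2 at 7.98. The genes below 1 CPM were Ifnz and the peptide transporter gene Tap1, with 1 read each, and Oasl2 with 9. Ifnz had no read without replicate 2, and Tap1 none without replicate 1. Irf7, which interferon induces along with these genes, stood at 2 reads in the same libraries. That lay between Tap1 (1) and Oasl2 (9) at the low end of the list, with Ifit2 (1480) and Rsad2 (977) near the high end. Cxcl10, Isg15 and the genes below were named after their values were seen.

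**Figure D5:**
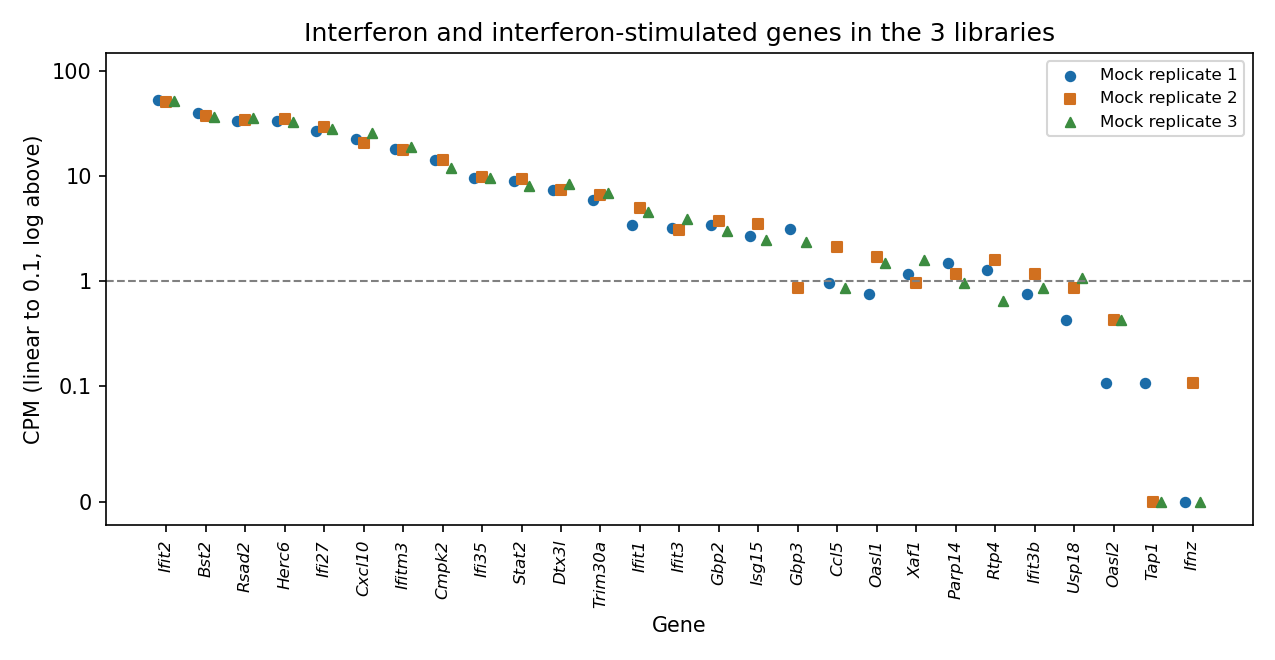
CPM of 27 interferon and interferon-stimulated genes (vertical axis, linear to 0.1 and log above) in each Mock replicate, ordered by mean, with 1 CPM as a dashed line (1 of the 28 with a row is not shown). Ifit2, Bst2, Rsad2 and Herc6 lie highest, between 33.7 and 52.4 CPM on average.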

How the data were processed

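RNA of 3 B16 Mock samples was sequenced from libraries made by BGI, per the labels' protocols. The submitters' processing notes name the mouse build GRCm38.p6. The sources used here give no aligner, counting tool, annotation or strand setting. What the authors deposited is a table of estimated counts per gene symbol, not normalized, of which 2270 of 17285 rows (13.1%) hold a value more than 0.005 from a whole number. None of the 9 measured genes does. Counts were rounded and scaled by TMM, and 14408 rows with a read were tested.

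The 10 genes and the lists were chosen with earlier results of these data known. Levels were set against 1 CPM with the quasi-likelihood F statistic of edgeR 4.0.16 (R 4.3.3), from an intercept-only fit whose offsets make 0 equal to 1 CPM. The larger of its p and that of a Poisson likelihood-ratio test against 1 CPM was used. Ratios within a library used counts plus 0.5 and limma 3.58.1 with a mean-variance trend. Calls used a Benjamini-Hochberg adjusted p under 0.05 over all genes. A symbol's exon length is that of all GENCODE M21 exons merged, or of the longest transcript. Genes named are the 10, and in each list the 4 highest and those without a read; others were named after their values were seen. Of the highest genes, 1 is not reported here. DESeq2 1.42.0 and the other alternatives are given in the closing section. The tests were checked on simulated counts, with 50 genes per setting. The level test called 40 at 0.5 CPM, 16 at 0.667, 28 at 1.5 and 50 at 2 CPM. The ratio test called 50 at a ratio to Tbk1 of 0.5, 47 at 0.8, 48 at 1.25 and 50 at 2. The variation test, at 300 counts, called 0 unchanged genes. With 1 library changed it called 19 at 1.25-fold, 50 at 1.5-fold and 50 at 2-fold.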

Additional observations from a re-analysis of the deposited data

How the results depend on the processing

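The 8 genes above 1 CPM kept that call under every alternative run, and Irf7 kept its own except where it could not be tested or DESeq2's Wald test was used. That test called 0 genes below 1 CPM in the whole table, hence 0 of the 9 genes, 0 of all lists together and 0 in each list; the cause was not tested. Among genes with at least 10 counts, where fewer genes are tested, the count below was 0 for the 9 genes, 1 over all lists and 0 for DNA sensors, RNA sensors, the NF-κB arm and interferon-stimulated genes. Against 0.5 CPM, 0 STING regulators were below, and against 2 CPM the count below was 19 over all lists, 5 RNA sensors and 8 interferon-stimulated genes, as other thresholds ask another question. With each replicate left out in turn, the count below ran from 5 to 11 over all lists (5 without replicate 2), from 2 to 4 for DNA sensors, 0 to 2 for RNA sensors (3 with all libraries), 0 to 1 for STING regulators and 0 to 1 for the NF-κB arm; a gene whose only read lay in the library left out was then not tested. The ratio of Cgas to Trex1 turned from 0.53 in reads to -1.31 per kilobase of annotated exon and -1.37 per kilobase of the longest transcript (the latter added after seeing the data), where only the length divided by differs. That of Trex1 to Tbk1 was -1.70 in reads, 0.0706 per kilobase of annotated exon, where no difference was detected (limma adjusted p = 0.474), and -0.22 per kilobase of the longest transcript (adjusted p = 0.0251). With counts not rounded, 3 DNA sensors were below, since Mndal was not tested. The log2 ratio of Irf3 to Irf7 moved from 7.33 to 8.40 with 0.1 counts added, since Irf7 had 2 reads. The other ratios and the spread between libraries kept direction and call. No paired analysis was possible because the series has a single group. The depth limits what can be said of genes under about 1 CPM.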

Other observations

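Of the 118 pathway genes with enough reads for the Poisson deviance test, 4 varied between the libraries, a share near the 3.31% of all genes tested. The counts of the RNase T2 copies Rnaset2a and Rnaset2b, whose products degrade RNA in lysosomes, moved in opposite directions. Rnaset2a had 656, 569 and 483 counts in replicates 1, 2 and 3 (Poisson deviance adjusted p = 0.000108), and Rnaset2b 268, 355 and 370 (adjusted p = 0.00723). Both have fractional counts, which the Poisson test treats as whole reads. Whether the division of reads between the copies changed was not tested. Gbp3, an interferon-induced GTPase gene, had 29, 8 and 22 counts (adjusted p = 0.0426), and it was unresolved against 1 CPM without replicate 1 or 3 (edgeR adjusted p = 0.303 and 0.164). Hnrnpa2b1 had 7001, 7585 and 7232 counts (adjusted p = 0.00363), with a highest value in replicate 2.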
